A study of Mus musculus with 4 samples.

Results

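The expression of 31 nuclear receptor genes was examined in mouse liver, from the retinoid X receptors that partner many of the others to the hepatocyte factor Hnf4a. They were taken from a list of gene symbols, which left out Ppara, Nr0b2, Nr1h4, Nr3c1 and the Nr1d and Nr4a genes. Of the 31 genes, 30 had a probe set under their own symbol among 19938 genes on the array, each with 1 probe set, and the LXR paralogue Nr1h2 was not analysed here. An expression filter, a mean log2 value over the 4 arrays above the 40th percentile of all genes, kept 25 receptors among 11963 genes.

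Total RNA from liver was hybridized to 4 Affymetrix Mouse Gene 1.0 ST arrays, which read a transcript through a probe set of many short probes. The groups were SIRT6Co/Co ;Alb-Cre mice at 8 months and at 2 months of age, labelled KO, and WT SIRT6 mice at 8 months and at 2 months. SIRT6 is a chromatin-bound deacetylase, and the albumin promoter directs the Cre recombinase to hepatocytes, so other liver cells are not its target. Each group was 1 array holding RNA combined from 3 pairs of mice, so no array repeats another and the spread between animals was not measured. Strain, sex, feeding state and time of day are not given in the labels, and no label says that the WT mice carried Cre or the conditional allele without Cre.

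Nuclear receptors are transcription factors whose activity is mostly set by small lipophilic ligands such as thyroid hormone, retinoic acid, bile acids, oxysterols, fatty acids and drugs. Many bind DNA as a pair with a retinoid X receptor at repeats of the half-site AGGTCA, and they switch between corepressor and coactivator complexes when a ligand binds. In liver they govern drug clearance, bile acid and cholesterol handling, fat storage and glucose production, and orphan members such as Hnf4a also maintain the identity of the hepatocyte.

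The RefSeq promoter windows of Nr1i3, Nr2c2 and Pparg are printed here because these were the receptors that passed the genotype test. Each window holds the 250 bases before an annotated transcript start in GRCm38.p6, 5′ to 3′ on the gene's strand, and Pparg has 3 such starts. Capitals mark matches, on either strand, to the half-site AGGTCA, the AP-1 site TGAGTCA or the E-box CACGTG.
Nr1i3 (chr1:171213720-171213969, plus strand): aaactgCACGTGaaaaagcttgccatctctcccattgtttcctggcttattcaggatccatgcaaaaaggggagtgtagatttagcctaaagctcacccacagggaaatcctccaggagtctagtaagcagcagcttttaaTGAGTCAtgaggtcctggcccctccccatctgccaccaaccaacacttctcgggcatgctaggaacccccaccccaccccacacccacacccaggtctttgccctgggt
Nr2c2 (chr6:92092183-92092432, plus strand): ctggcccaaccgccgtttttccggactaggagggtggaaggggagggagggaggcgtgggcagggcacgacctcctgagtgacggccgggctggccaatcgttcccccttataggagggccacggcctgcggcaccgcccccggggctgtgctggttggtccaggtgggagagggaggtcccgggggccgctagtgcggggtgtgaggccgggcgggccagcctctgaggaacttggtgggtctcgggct
Pparg (chr6:115360894-115361143, plus strand): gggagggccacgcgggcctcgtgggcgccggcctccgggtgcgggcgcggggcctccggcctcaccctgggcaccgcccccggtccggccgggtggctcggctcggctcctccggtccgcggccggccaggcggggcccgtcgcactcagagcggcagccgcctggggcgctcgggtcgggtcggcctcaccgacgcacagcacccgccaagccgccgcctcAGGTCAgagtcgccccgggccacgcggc
Pparg (chr6:115362099-115362348, plus strand): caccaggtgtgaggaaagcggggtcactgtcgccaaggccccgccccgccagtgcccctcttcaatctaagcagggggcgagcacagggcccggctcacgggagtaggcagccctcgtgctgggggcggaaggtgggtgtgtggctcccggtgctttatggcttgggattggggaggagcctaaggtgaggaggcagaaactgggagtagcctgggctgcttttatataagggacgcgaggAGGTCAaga
Pparg (chr6:115421816-115422065, plus strand): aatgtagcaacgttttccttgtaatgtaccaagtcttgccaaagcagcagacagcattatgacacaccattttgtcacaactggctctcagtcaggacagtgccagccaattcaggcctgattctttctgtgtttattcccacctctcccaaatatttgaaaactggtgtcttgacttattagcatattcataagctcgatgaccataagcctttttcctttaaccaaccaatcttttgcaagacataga

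Nr1i3 held 1 AP-1 match and 1 E-box match, the first and second of the Pparg windows held 1 half-site each, and the Nr2c2 window and the third Pparg window held no match to these letters. Over all 32851 windows, AGGTCA occurred in 14%, TGAGTCA in 4.46% and CACGTG in 6.02%. AGGTCA occurred in 8 of the 49 receptor windows, TGAGTCA in 2 and CACGTG in 3. Of the 29 receptors with a window, 7 had AGGTCA in at least 1 window (Nr5a2, Nr6a1, Pparg, Rarg, Rxra, Rxrg and Thrb), 2 had TGAGTCA (Esrrg and Nr1i3) and 3 had CACGTG (Nr1i3, Rara and Thrb). Tandem copies of the half-site spaced by 1 base or by 4 bases, which also count as half-site matches, occurred in 0.0335% and 0.0152% of all windows and in 0 receptors. The windows differed in base composition, with a GC content of 53.2% for Nr1i3, 71.2% for Nr2c2 and 82.4%, 63.6% and 40.8% for the Pparg windows. A match is a string of letters and not a measured binding site, and the array does not tell the Pparg starts apart.

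The Sirt6 transcript did not separate the genotypes: it read 4.46 and 4.54 in the KO arrays at 8 and 2 months, against 4.50 and 4.55 in the WT arrays (limma adjusted p = 0.922), and the labels do not say which exons its probe set covers. Array medians over all probe sets lay between 3.52 and 3.58. Hepatocyte markers had 0 of 7 measured genes past the genotype test (2 at an unadjusted p under 0.05), with list means of 11.96 and 12.01 in the KO arrays and 12.05 and 12.03 in the WT arrays, so the markers of the labelled tissue were high on every array. Immediate early genes stood far apart, and 10 of 10 tested rose. List means were 7.35 and 7.34 in the KO arrays against 5.17 and 5.26 in the WT arrays. Among them, Egr2 read 3.27 and 3.05 in WT, below the filter value of 3.34, and passed the filter only through the KO arrays. Kupffer cell and macrophage markers had 3 of 10 that rose (Cd5l, Vsig4 and Timd4) and 1 that fell (Lyz2), with list means of 5.33 and 5.47 in KO against 5.05 and 5.31 in WT. Stellate cell and fibroblast markers had 1 of 12 that rose (Reln) and 5 that fell, among them Acta2, Vim, Col1a1 and Col1a2, with list means of 5.63 and 5.69 in KO against 5.92 and 6.11 in WT. Endothelial markers had 1 of 10 that rose (Cdh5) and cholangiocyte markers 1 of 4 that fell (Krt23). Lymphocyte and neutrophil markers had 0 of 1, and those of adipose tissue, muscle and pancreas 0 of 5, past the test or at an unadjusted p under 0.05. Xist, the RNA of the inactive X chromosome, read 2.29 and 2.66 in KO against 3.08 and 4.42 in WT, a mean below the filter. Of the Y-linked genes, 0 of 3 passed (2 at an unadjusted p under 0.05), and 3 of 3 were higher in KO at both ages. Of these markers, Cdh5, Col1a1, Reln, Timd4, Lyz2 and Vim lost the call under at least 1 processing alternative. The part of any of these in the receptor values was not tested. In whole liver, fewer cells of a type and less RNA per cell cannot be told apart.

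Across genotype, 1 receptor was higher and 2 were lower in the KO arrays. Nr1i3, the constitutive androstane receptor (CAR) that senses drugs and other foreign compounds, fell by close to 1 log2 unit, to 51.7% of the WT level. Nr2c2, the orphan receptor TR4, fell to 74.1% of the WT level, and Pparg, the receptor that drives fat storage, rose to 149% of it. The other 22 receptors above the filter did not pass. These 3 of 25 are 12% of the receptors tested, beside 11.1% of all 11963 genes tested (1325 genes, 6.81% rising and 4.26% falling), so the count itself does not set the receptors apart. The test was limma's moderated test in an additive model of genotype and age, with p-values adjusted over all 11963 genes and an adjusted p of 0.05 as the threshold. It weighs the genotype effect against a moderated variance, drawn mostly from genes of similar intensity (prior degrees of freedom 11.3). The gene's own departure from additivity over the 4 arrays adds 1 residual degree of freedom. No spread between pools or animals is measured.

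**Figure D1:**
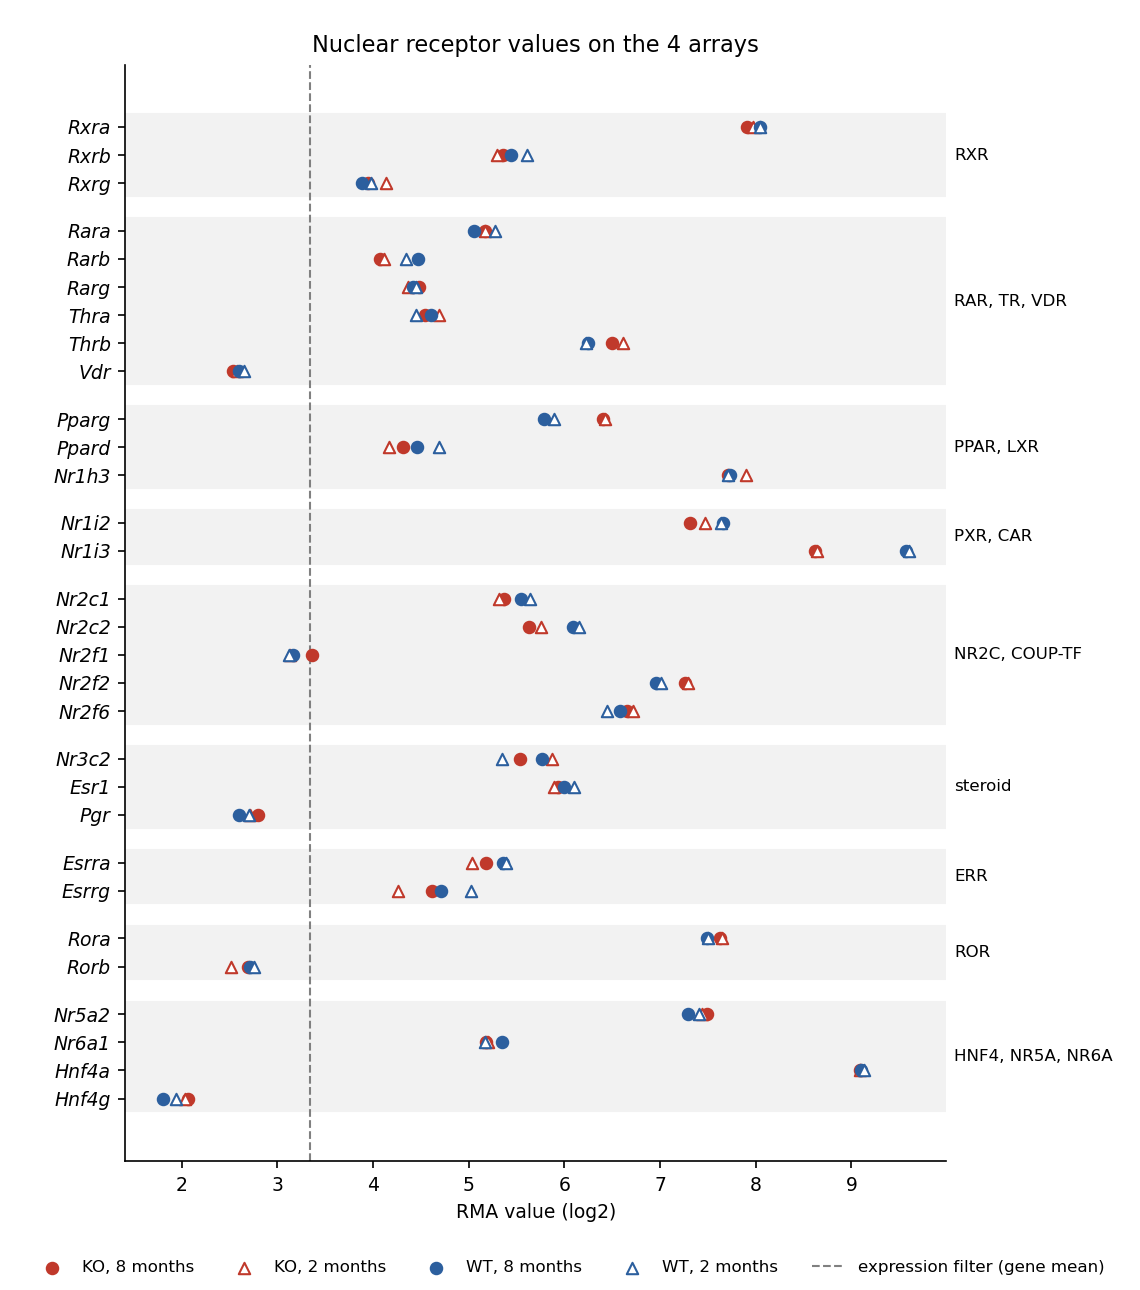
Deposited RMA values (log2) of the 30 measured receptors, 1 point per array, with KO arrays in red, WT arrays in blue, filled circles for 8 months and open triangles for 2 months. Nr1i3 shows the widest gap between the genotypes, and Vdr, Nr2f1, Pgr, Rorb and Hnf4g have means left of the dashed filter line at 3.34. Positions of different genes along the axis reflect different probes and cannot be compared.

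Both xenobiotic receptors were lower on the KO arrays, and Nr1i3 was the only receptor to differ by 1.5-fold or more, in 1 direction, at 8 and at 2 months, beside 2.84% of all genes (1.06% lower and 1.78% higher). Nr1i3 read 8.62 and 8.64 in the KO arrays at 8 and 2 months, against 9.57 and 9.60 in the WT arrays. The arrays of a genotype were 0.02 apart in KO and 0.03 apart in WT, and the genotypes were 0.95 apart at 8 months and 0.96 at 2 months in log2 units. The mean difference was -0.95 (SE 0.08, 95% interval -1.12 to -0.79, limma adjusted p = 3.66e-06). Nr1i2, the pregnane X receptor (PXR) that shares many ligands and target genes with CAR, read 7.32 and 7.47 in KO against 7.66 and 7.63 in WT. Both KO values were below both WT values, with differences of -0.35 at 8 months and -0.17 at 2 months and a mean of -0.26 (SE 0.09, limma adjusted p = 0.0893). The Nr1i2 difference passed after quantile normalization was run again (-0.30, limma adjusted p = 0.0145) and after cyclic loess (-0.30, limma adjusted p = 0.0177). These were 2 of 10 processing alternatives, and after median centring the difference was -0.22 (limma adjusted p = 0.310).

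Among the lipid sensors only Pparg passed. It read 6.40 and 6.42 in the KO arrays at 8 and 2 months, against 5.79 and 5.89 in the WT arrays. The genotypes did not overlap, and the gap was several times the distance between the arrays of either genotype. The difference was 0.61 at 8 months and 0.53 at 2 months, a ratio of 1.53 and 1.44, with a mean of 0.57 (SE 0.10, 95% interval 0.35 to 0.79, limma adjusted p = 0.0028). Ppard, a broadly expressed receptor for fatty acids, read 4.31 and 4.17 in KO against 4.46 and 4.69 in WT. Its difference was larger at 2 months (-0.52) than at 8 months (-0.15), and the mean of -0.33 did not pass (SE 0.14, limma adjusted p = 0.156). Nr1h3, the oxysterol receptor LXR alpha, read 7.71 and 7.89 in KO against 7.73 and 7.71 in WT. The KO array at 2 months stood above the other three, which lay within 0.02 of each other, and the mean difference was 0.09 (95% interval -0.11 to 0.28, limma adjusted p = 0.610).

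**Figure D2:**
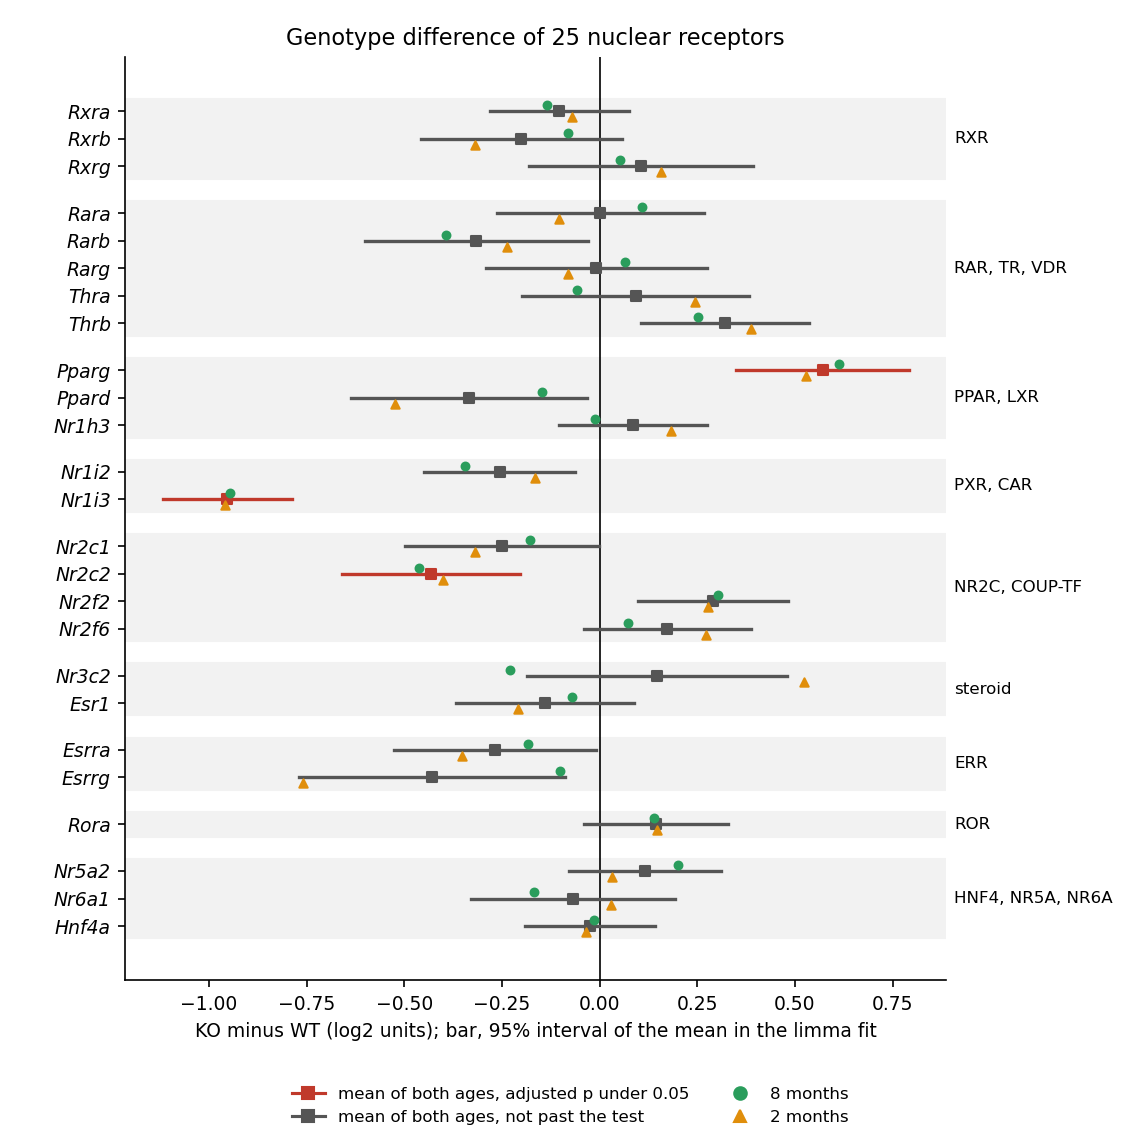
KO minus WT difference (log2 units) of the 25 receptors above the filter: squares give the mean of both ages with its 95% interval from the limma fit, in red where the adjusted p was under 0.05, circles the difference at 8 months and triangles that at 2 months. Nr1i3 and Nr2c2 lie left of 0 and Pparg right of it with both ages close together, while Nr3c2 has its ages on opposite sides.

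The 4 NR2C and COUP-TF orphan receptors that were tested had KO values outside the range of the WT values, 2 above and 2 below. Such an order was common, found in 54.8% of all genes tested, and of the 4 only Nr2c2 passed the test. Nr2c2 read 5.63 and 5.75 in the KO arrays at 8 and 2 months, against 6.09 and 6.15 in the WT arrays. It fell by 0.46 at 8 months and 0.40 at 2 months, with a mean difference of -0.43 (SE 0.10, 95% interval -0.66 to -0.20, limma adjusted p = 0.0189). With no expression filter, which adjusts over 19938 genes, the same difference had an adjusted p of 0.0579. Its paralogue Nr2c1 (TR2), with which it binds DNA as a heterodimer, read 5.36 and 5.32 in KO against 5.54 and 5.64 in WT. The Nr2c1 difference had the same sign at both ages, -0.18 and -0.32, and did not pass (mean -0.25, limma adjusted p = 0.200). Nr2f2 (COUP-TFII), known for its roles in vessels and mesenchyme, read 7.26 and 7.29 in KO against 6.96 and 7.01 in WT. The gap was 0.30 at 8 months and 0.28 at 2 months, and the mean of 0.29 lay just outside the threshold (SE 0.09, limma adjusted p = 0.0543). It passed with the filter at the 60th percentile (limma adjusted p = 0.043) and without age in the model (limma adjusted p = 0.0325). These were 2 of 10 processing alternatives, across which the limma adjusted p reached 0.140 for Nr2f2. Endothelial markers had list means of 5.74 and 5.84 in KO against 5.71 and 5.74 in WT, but their median genotype difference was -0.02 at 8 months and -0.04 at 2 months. Stellate cell and fibroblast markers, of which 5 of 12 fell, had medians of -0.16 at both ages. The part of such cells in the Nr2f2 values was not tested. Nr2f6, another COUP-TF relative, read 6.65 and 6.71 in KO against 6.58 and 6.44 in WT, a mean difference of 0.17 (limma adjusted p = 0.309).

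The retinoic acid and thyroid hormone receptors did not pass, and Thrb came closest to the threshold among them. Thrb, the main thyroid hormone receptor of hepatocytes, read 6.50 and 6.61 in the KO arrays at 8 and 2 months, against 6.24 and 6.22 in the WT arrays. Both KO arrays were above both WT arrays, by 0.25 at 8 months and 0.39 at 2 months. The mean was 0.32 (SE 0.10, 95% interval 0.11 to 0.54, limma adjusted p = 0.0572), and it passed with the filter at the 60th percentile (limma adjusted p = 0.0431) and without age in the model (limma adjusted p = 0.0413). These were 2 of 10 processing alternatives, across which the limma adjusted p reached 0.134 for Thrb. Thra read 4.54 and 4.69 in KO against 4.60 and 4.44 in WT, so the genotypes overlapped (mean 0.09, limma adjusted p = 0.737). Rarb, a retinoic acid receptor whose own gene responds to retinoic acid, read 4.08 and 4.11 in KO against 4.47 and 4.35 in WT. Its values did not overlap, and its difference of -0.39 at 8 months and -0.24 at 2 months did not pass (mean -0.32, SE 0.13, limma adjusted p = 0.158). Stellate cell and fibroblast markers were also lower on average on the KO arrays, as given above, but were split: 5 of 12 fell and Reln rose (mean 0.29). The uncalled Lrat, Des, Dcn, Pdgfrb, Rgs5 and Hand2 had mean differences between -0.14 and 0.11. The part of such cells in the Rarb values was not tested. Rara and Rarg had overlapping genotypes, with mean differences of 0.00 and -0.01 and 95% intervals of -0.26 to 0.27 and -0.29 to 0.27.

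The retinoid X receptors, shared partners of the receptors above, showed no difference past the test. Rxra, their predominant form in liver, read 7.91 and 7.97 in the KO arrays at 8 and 2 months, against 8.04 and 8.04 in the WT arrays. The mean difference was -0.10 (95% interval -0.28 to 0.08, limma adjusted p = 0.491), although both KO values lay below both WT values. Rxrb read 5.36 and 5.29 in KO against 5.44 and 5.61 in WT (mean -0.20, limma adjusted p = 0.327), and Rxrg read 3.94 and 4.14 in KO against 3.89 and 3.98 in WT (mean 0.11, limma adjusted p = 0.688).

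The steroid receptors and the oestrogen-related receptors held the pair of members whose genotype difference shifted most between ages. Nr3c2, the mineralocorticoid receptor, read 5.53 and 5.87 in the KO arrays at 8 and 2 months, against 5.76 and 5.35 in the WT arrays. The difference was -0.23 at 8 months and 0.52 at 2 months, so the mean of 0.15 (SE 0.15, limma adjusted p = 0.616) describes neither age. Esrrg, an orphan receptor that works with PGC1 coactivators on mitochondrial and fasting genes, read 4.61 and 4.26 in KO against 4.71 and 5.02 in WT. The 2-month arrays were 0.76 apart and the 8-month arrays 0.10 apart, both lower in KO, and the mean of -0.43 did not pass (SE 0.16, 95% interval -0.77 to -0.09, limma adjusted p = 0.106). Esrra, its relative, read 5.17 and 5.03 in KO against 5.36 and 5.38 in WT, with non-overlapping genotypes and a mean of -0.27 (limma adjusted p = 0.185). Esr1, the oestrogen receptor alpha, read 5.93 and 5.89 in KO against 5.999 and 6.10 in WT (mean -0.14, limma adjusted p = 0.461).

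The HNF4, NR5A, NR6A and ROR receptors did not pass. Hnf4a, a factor that keeps hepatocyte genes on, read 9.09 and 9.09 in the KO arrays at 8 and 2 months, against 9.10 and 9.13 in the WT arrays. Its mean difference of -0.02 had a 95% interval of -0.19 to 0.14 (limma adjusted p = 0.888). Nr5a2 (LRH-1), a regulator of bile acid and cholesterol genes, read 7.49 and 7.44 in KO against 7.29 and 7.41 in WT, with both KO values above both WT values and a mean of 0.12 (95% interval -0.08 to 0.31, limma adjusted p = 0.470). Rora, which activates clock and lipid genes at elements it shares with REV-ERB, read 7.63 and 7.64 in KO against 7.49 and 7.50 in WT. Both KO values were above both WT values, by 0.14 at 8 months and 0.15 at 2 months, and the difference did not pass (95% interval -0.04 to 0.33, limma adjusted p = 0.327). Nr6a1, a receptor best known from germ cells and embryos, read 5.17 and 5.20 in KO against 5.34 and 5.17 in WT (mean -0.07, limma adjusted p = 0.788).

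The 5 receptors with means below the filter read below the median of all probe sets on every array, Nr2f1 the closest to it. Vdr, the vitamin D receptor, read 2.53 and 2.57 in the KO arrays against 2.59 and 2.65 in the WT arrays, and Rorb read 2.70 and 2.51 in KO against 2.71 and 2.75 in WT. Pgr, the progesterone receptor, read 2.80 and 2.72 in KO against 2.60 and 2.70 in WT. Hnf4g read 2.07 and 2.03 in KO against 1.80 and 1.94 in WT, and Nr2f1 read 3.36 and 3.13 in KO against 3.16 and 3.12 in WT. In a limma fit over all 19938 genes, 0 of these 5 passed, with adjusted p-values between 0.386 and 0.823, and 0 had an unadjusted p under 0.05.

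Taking the 25 receptors by array order, 18 had both KO values outside the range of both WT values, 6 above and 12 below, where 54.8% of all genes tested did so, 29.1% above and 25.7% below. The genotype difference had the same sign at both ages in 19 receptors (76% of them), beside 66.2% of all genes, and the 2 differences share no array. Its median over receptors was -0.07 at 8 months and -0.07 at 2 months, against 0.00 and 0.01 over all genes. At 8 months, Nr1i3 and Pparg were at least 1.5-fold apart, where 4.34% of all genes were, and at 2 months Nr1i3 and Esrrg were, where 6.37% were. An unadjusted limma p under 0.05 was reached by 11 receptors, beside 25.0% of all genes.

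**Figure D3:**
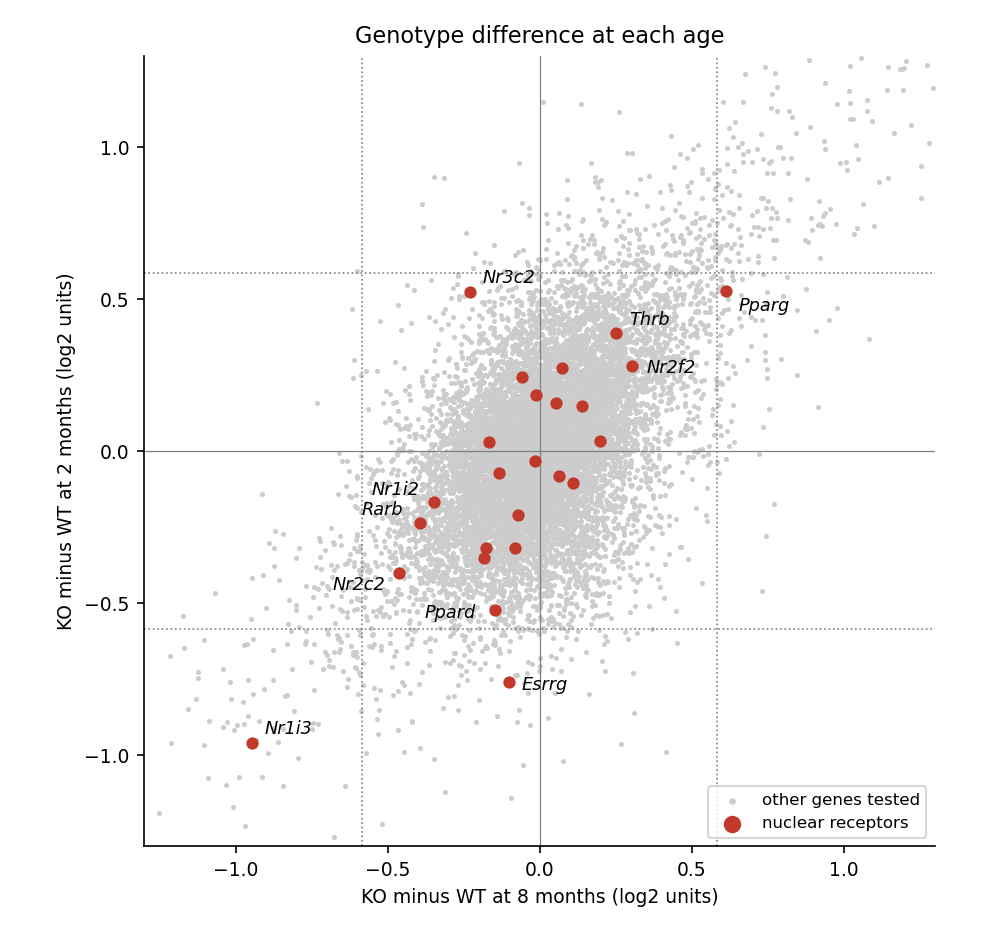
KO minus WT difference (log2 units) at 8 months on the horizontal axis and at 2 months on the vertical axis, with the 25 receptors in red and the other genes tested in grey; dotted lines mark 1.5-fold, and genes beyond the axis limits are not drawn. Nr1i3 alone lies past 1.5-fold at both ages, and Esrrg and Nr3c2 lie away from the diagonal.

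With age, no receptor passed the test. The limma age effect was past the threshold for 0 of 25 receptors, beside 0.00836% of all genes tested, which is 1 gene, the lysozyme Lyz2. At an unadjusted p under 0.05 the count was 0 of 25 receptors, beside 3.60% of all genes. The difference of 8 minus 2 months ran from -0.34 for Nr3c2 to 0.35 for Esrrg in KO mice, and from -0.31 for Esrrg to 0.41 for Nr3c2 in WT mice. The 2 receptors at the ends of both ranges thus moved in opposite directions in the genotypes, and the difference between genotypes was not tested. Nr1i3 was nearly level with age, at -0.02 in KO and -0.03 in WT, and so was Hnf4a, at -0.01 and -0.02. Pparg differed by -0.02 in KO and -0.10 in WT. No receptor was 1.5-fold apart between ages in either genotype, where 1.28% of all genes were apart in at least 1 genotype and 0.0167% in both.

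**Figure D4:**
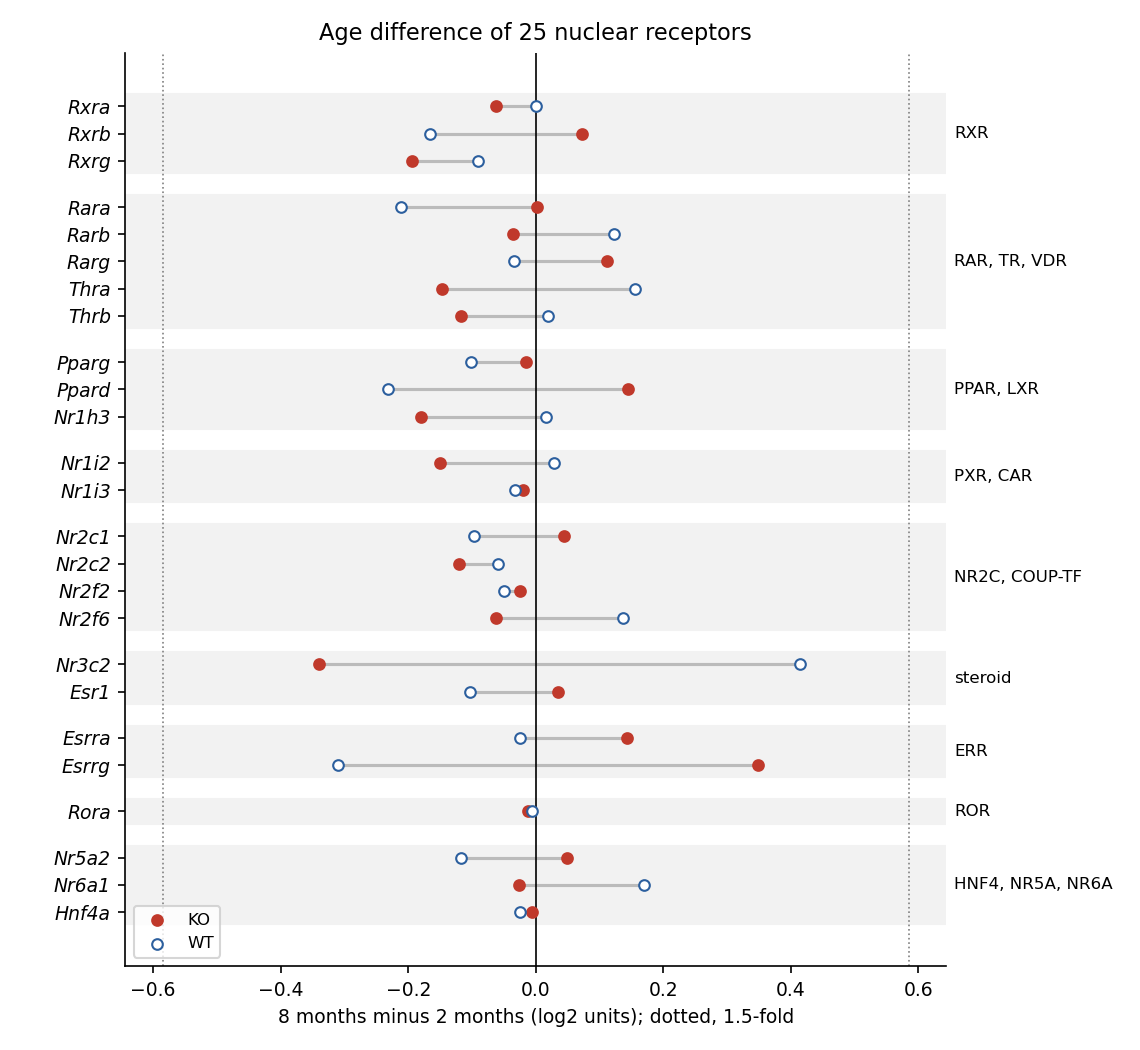
Difference of 8 minus 2 months (log2 units) for the 25 receptors, with KO in red and WT as open blue circles joined by a line, and dotted lines at 1.5-fold. All points lie inside the dotted lines, and Nr3c2 and Esrrg have the longest lines.

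Of the 9 nuclear receptors that the list left out, all of which were tested, 2 rose and 2 fell. These 4 are 44.4% of the 9, beside the 11.1% of all genes, and the list was chosen with earlier results of these data known. Nr4a1, an immediate early receptor, read 9.59 and 9.66 in the KO arrays at 8 and 2 months, against 7.17 and 7.27 in the WT arrays, a mean difference of 2.40 (limma adjusted p = 1.02e-09). Nr4a3, of the same family, read 4.67 and 4.18 in KO against 2.92 and 3.46 in WT. It was 1.75 and 0.72 higher (limma adjusted p = 0.0012). Its mean passed the filter through the KO arrays, and its 8-month WT value lay below the filter value of 3.34. Ppara, the receptor for fatty acid oxidation, fell by 0.57 and 0.42 (limma adjusted p = 0.0015), and Nr1d1, the clock repressor REV-ERB alpha, fell by 0.34 and 0.41 (limma adjusted p = 0.0084), a call lost without the intensity trend and after median centring. Nr0b2, Nr1h4 and Nr3c1 did not pass, with mean differences of 0.12, 0.16 and -0.04. The paralogues Nr1d2 and Nr4a2 did not pass either, with mean differences of 0.02 each.

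Coregulators, the proteins that receptors recruit, showed few differences. Of 15 coactivators tested, 0 rose and 1 fell, Ppargc1b (PGC1 beta), which read 4.89 and 4.94 in the KO arrays and 5.46 and 5.58 in the WT arrays (limma adjusted p = 0.0051). Ppargc1a, its paralogue, read 4.65 and 4.81 in KO against 4.45 and 4.16 in WT, a difference of 0.21 at 8 months and 0.65 at 2 months that did not pass (limma adjusted p = 0.0763). Of 10 corepressors tested, 0 passed (1 at an unadjusted p under 0.05), with a median mean difference of 0.11. The 2 lists together had 1 of 25 past the test, which is 4%, beside the 11.1% of all genes.

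Genes listed here as targets of CAR and PXR passed the test in both directions. Of 21 tested, 10 rose and 4 fell, with medians of 0.06 at 8 months and 0.33 at 2 months. These 14 are 66.7% of those tested, beside the 11.1% of all genes. The list was drawn up with earlier results of these data known, so its share is no test of CAR or PXR. Cyp2b9, a cytochrome P450, read 9.67 and 9.67 in the KO arrays, against 7.93 and 8.00 in the WT arrays (limma adjusted p = 2.05e-08). The related Cyp2b13 rose by 1.98 at 8 months and 1.86 at 2 months, and the glutathione transferase Gstm3 rose by 1.25 and 1.48. Aldh1a7, an aldehyde dehydrogenase, rose by 0.76 and 1.13. Opposite to these, Cyp3a13 read 5.68 and 5.88 in KO against 7.52 and 7.41 in WT (limma adjusted p = 3.68e-07). The stress gene Gadd45b, the transporter Slco1a4 and the carboxylesterase Ces2a fell by means of 1.24, 0.66 and 0.59. Cyp2b10, the gene most often used to read out CAR in mice, read 6.59 and 6.71 in KO against 7.09 and 6.88 in WT, a mean difference of -0.34 (limma adjusted p = 0.0565). Cyp3a11, its counterpart for PXR, read 10.39 and 10.74 in KO against 10.33 and 10.12 in WT (mean 0.34, limma adjusted p = 0.0675). The P450 and glutathione transferase genes are families of closely related genes whose probes can cross-hybridize, which was not tested. Cyp2b9 and Cyp2b13, which rose in KO, are known as female-biased genes of mouse liver. Xist, given above, ran the opposite way and was lower on the KO arrays, and the Y-linked genes were higher there. The sex of the pooled mice was not given, and the part of sex in these values was not tested.

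Genes of fat storage linked to PPARG were split. Of 9 tested, 3 rose and 2 fell, with median differences of 0.04 at 8 months and -0.01 at 2 months. These 5 are 55.6% of those tested, beside the 11.1% of all genes, in a list drawn up with earlier results known. The fatty acid transporter Cd36 read 6.92 and 6.81 in the KO arrays and 5.39 and 5.51 in the WT arrays (limma adjusted p = 2.1e-06). The acyltransferase Mogat1 rose by 0.92 and 0.74, and Fitm1, which helps form lipid droplets, by 0.70 and 0.78. Mogat1 read 4.04 and 3.86 in KO against 3.13 and 3.12 in WT. Both WT values lay below the filter value of 3.34, so its mean passed the filter only through the KO arrays. The droplet coat protein Plin4 fell by 0.69 at both ages, and the droplet fusion protein Cidec fell by 0.55 at 8 months and 0.61 at 2 months. Macrophages also express Cd36 and Pparg, and their markers, given above, were higher on average in KO; their part was not tested.

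Targets of the other receptors gave these counts. Of 13 LXR targets tested, 3 rose (Srebf1 by a mean of 0.45, Abca1 by 0.31 and Scd1 by 0.28) and 2 fell (Lpcat3 by 0.33 and Abcg8 by 0.31), with medians of 0.00 at 8 months and 0.14 at 2 months. Of 9 thyroid hormone targets, 3 rose and 2 fell. Thrsp, which responds to thyroid hormone and carbohydrate, was 0.97 and 0.75 higher, the malic enzyme Me1 0.49 and 0.65 and Gpd2 0.33 and 0.28 (limma adjusted p between 2.11e-05 and 0.0395). Klf9, another gene induced by thyroid hormone, fell by 0.47 and 0.48, and the hormone Fgf21, which PPAR alpha also controls, by 0.40 and 0.53. Of 15 genes of retinoid handling and RAR targets, 3 rose and 1 fell. The retinol dehydrogenase Rdh11 rose by 1.18 at 8 months and 1.26 at 2 months, Tgm2 and Aldh1a1 rose by means of 0.31 each, and Rdh5 fell by 0.39. Of the LXR, thyroid hormone and retinoid genes named here, Abca1, Scd1, Lpcat3, Abcg8, Gpd2, Tgm2, Aldh1a1, Rdh5 and Fgf21 lost the call under at least 1 processing alternative.

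Targets of HNF4A, NR5A2 and ROR passed in both directions, and some stand in more than 1 target list. Of 16 HNF4A targets, 1 rose, the glucose-6-phosphatase G6pc by 0.62 and 0.79, and 3 fell. The bile acid 12-hydroxylase Cyp8b1 fell by 1.12 at 8 months and 0.75 at 2 months, the bile acid conjugating enzyme Baat by 0.80 and 0.52, and Pck1, an enzyme of glucose production, by 0.30 and 0.25. Of 7 NR5A2 targets, 0 rose and 4 fell, namely Cyp8b1, Abcg8, the HDL receptor Scarb1 (0.37 and 0.42) and the apolipoprotein Apom (1.02 and 0.76). In the same list Cyp7a1, the rate-limiting enzyme of bile acid synthesis, and the sterol transporter Abcg5 did not pass. Both were named after their values were seen, and their mean differences were 0.08 and 0.05 (limma adjusted p = 0.790 and 0.761). The Cyp7a1 difference was -0.31 at 8 months and 0.47 at 2 months, so its mean describes neither age. Of 10 ROR targets, 1 rose (Avpr1a, by a mean of 0.57) and 3 fell (Cyp8b1, Nr1d1 and Cyp7b1). Cyp27a1, in the vitamin D list of 2 tested genes, fell by a mean of 0.46. Abcg8, Scarb1, Pck1, Nr1d1 and Cyp7b1 lost the call under at least 1 processing alternative. Of 14 mitochondrial targets of the oestrogen-related receptors and PGC1, 0 passed. That list had 5 genes at an unadjusted p under 0.05 and a median of 0.00 at 8 months and 0.01 at 2 months. Over all target lists, 42 of 107 different genes passed, 23 rising and 19 falling, which is 39.3% beside the 11.1% of all genes; these lists were drawn up with earlier results of these data known.

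**Figure D5:**
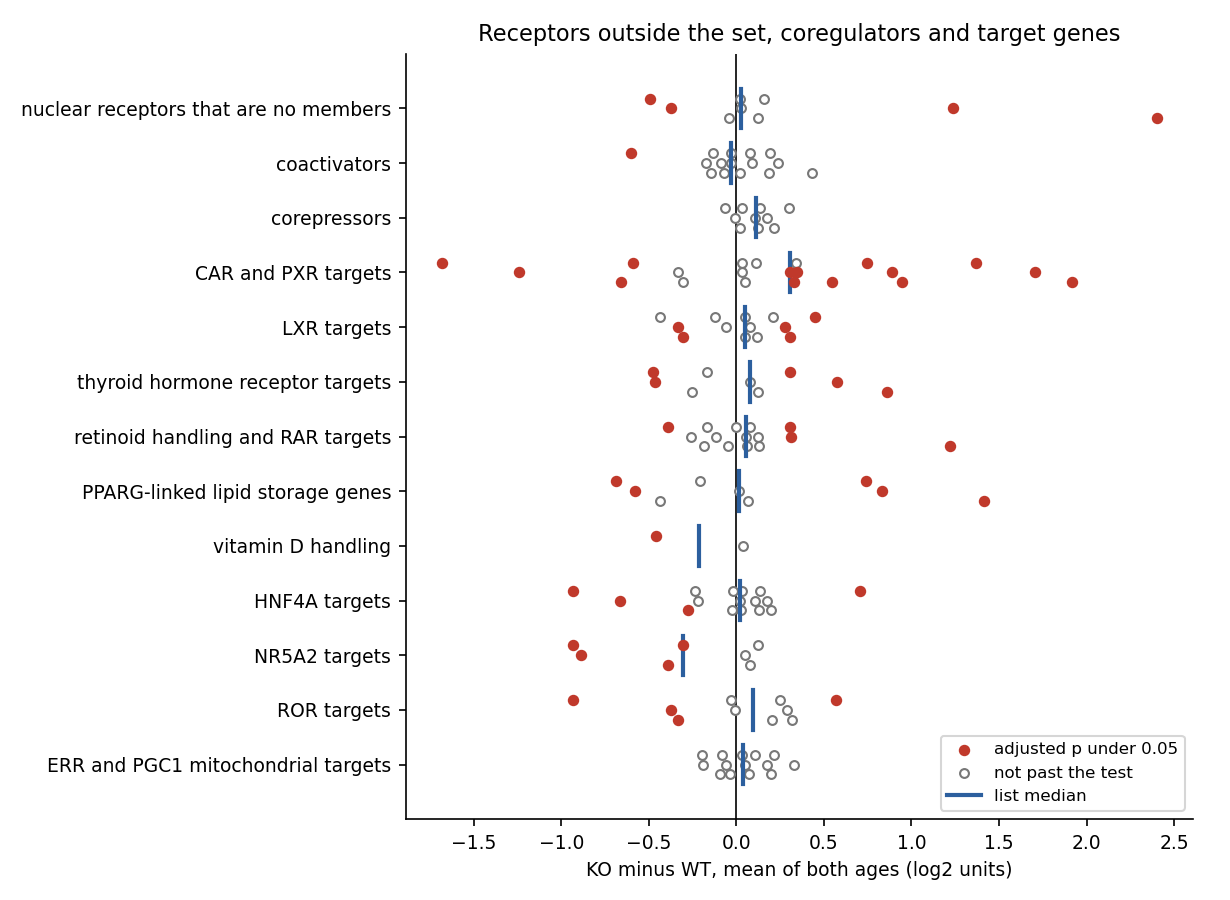
Mean KO minus WT difference (log2 units) of genes in 13 lists around the receptors, 1 point per gene above the filter, filled red where the limma adjusted p was under 0.05 and open grey otherwise, with a blue bar at each list's median. The CAR and PXR targets spread widest among the target lists, from Cyp3a13 at -1.68 to Cyp2b13 at 1.92, and the coactivators run from Ppargc1b at -0.60 to Ppargc1a at 0.43.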

How the data were processed

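Per the submitters' processing notes, the deposited log2 values are RMA output of Affymetrix Expression Console 1.0v. RMA subtracts background, quantile normalizes the arrays and summarises probes, which shrinks differences of dim probe sets. The table does not state the log base, which is taken to be that of RMA. The set of arrays normalized at once and the build of the array annotation are not given there.

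The table holds 35556 probe sets. The platform annotation pairs 21789 of them with 1 symbol and 1621 with several, and 12146 are unlisted. Single-symbol probe sets were averaged per gene (19938 genes, 999 with more than 1 probe set). A match by gene identifier to RefSeq genes of GRCm38.p6 changed 0 symbols, and 91 identifiers were unmatched. Promoter windows come from the RefSeq table of the same build.

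Genes with a mean above the 40th percentile of all genes, a log2 value of 3.34, were tested with limma 3.58.1 in R 4.3.3: an additive model of genotype and age over all 4 arrays, eBayes with an intensity trend (prior degrees of freedom 11.3) and Benjamini-Hochberg adjustment over 11963 genes. Intervals are 95% from the moderated t. Differences between 2 arrays carry no test. An array has no read depth, and the number of arrays limits the precision. The fit was tested on simulated data. The members, lists and alternatives were chosen with earlier results of these data known. Of each list, called genes were named up to the 4 highest and 4 lowest, with Ppara, Nr0b2, Nr1h4, Nr3c1, Nr1d1, Nr4a1, Cyp2b10, Cyp3a11, Ppargc1a and Sirt6 always named.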

Additional observations from a re-analysis of the deposited data

Results flagged for a closer look

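For 6 receptors, KO minus WT had opposite signs at the 2 ages, each age being 1 KO and 1 WT array. With 1 array per group these differences between ages were not tested. The difference at 8 months minus that at 2 months was -0.75 log2 units for Nr3c2, the mineralocorticoid receptor, whose genotype difference was -0.23 at 8 months and 0.52 at 2 months. It was -0.3 for Thra, with -0.06 at 8 months and 0.24 at 2 months. For Rara it was 0.21 and for Rarg 0.15, both higher in KO at 8 months and lower at 2 months. It was -0.2 for Nr1h3 (-0.01 and 0.18) and -0.2 for Nr6a1 (-0.17 and 0.03). Opposite signs occurred in 6 of 25 receptors, beside 4043 of 11963 genes tested.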

How the results depend on the processing

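No paired analysis was possible because each group is 1 array and the labels give no replicate number, and leaving out an array leaves no residual degree of freedom, so no such test was run. The count of receptors past the genotype test, 3, was 2 with no filter, 5 with the filter at the 60th percentile, 5 without age in the model, and 4 after quantile normalization or cyclic loess. Nr1i3 and Pparg passed under all 10 alternatives, with adjusted p-values from 1.7e-09 to 0.0014 for Nr1i3 and from 0.00057 to 0.017 for Pparg, and Nr2c2 passed under 9. Over all genes, the 1325 genotype calls became 752 with no filter and 846 without the intensity trend, and 1293 to 1761 otherwise. Their split, 815 rising and 510 falling, became 897 and 864 after quantile normalization, and the share rising, 61.5%, became 50.9% and, after median centring, 69.7%. The single age call became 0 with no filter, without the trend, with robust eBayes and with age alone in the model, 2 with the highest probe set, 3 after either quantile normalization or loess and 14 after median centring. No receptor passed for age under any of the 10 alternatives. The count at least 1.5-fold apart at both ages, 1, became 0 at 2-fold and 2 after median centring. Chosen after seeing the data, the same count was 2 on the 8-month arrays alone and 2 on the 2-month arrays alone. Directions reversed for Rara after quantile normalization (-0.028) and loess (-0.018), for Rarg after centring (0.031), quantile normalization (0.0087) and loess (0.010), for Hnf4a after centring (0.015) and for Sirt6 after centring (0.0093), all far from the threshold; the cause was not tested. In all, 232 of 245 receptor values and 567 of 622 values of other named genes kept direction and side of the threshold. For receptors, changing the filter, the eBayes options, the probe-set choice or the model terms left every difference as it was. Only median centring, quantile normalization and loess could reverse a receptor's direction, and the other alternatives could change its adjusted p alone. Of 56 other named genes with a call, 19 lost it under at least 1 alternative, 15 of them with no filter, 14 without the trend, 13 after centring, 2 without age in the model and 1 after quantile normalization.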
